A study of Mus musculus with 8 samples.

Results

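The histone clusters of chromosome 13 were described through 35 short coding transcripts of 89219 in the authors' merged annotation, at 32 of its 31020 loci. A transcript was taken where it matched a reference transcript exactly, carried a coding-sequence identifier, had 1 exon, was shorter than 800 nucleotides (nt) and lay inside 1 of 2 windows of chromosome 13 (genome build mm9). Window P holds 15 of the transcripts at 15 loci, which lie between 21807632 and 21925444, and window Q holds 20 at 17 loci, with the transcripts between 23622913 and 23856283. The rule itself uses no measured value, but the members were chosen with earlier results of these data known. The files give no gene names, so the transcripts are called P1 to P15 and Q1 to Q20 in chromosome order.

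The cells were macrophages grown from the bone marrow of C57BL/6 mice, known as bone marrow-derived macrophages (BMDMs). Of 8 libraries, 4 came from untreated cells and 4 from cells given IL-4, the cytokine interleukin-4, which drives the alternative activation of macrophages. All 8 share the strain and the cell type, and no genetic change is named in the labels. The dose and duration of IL-4 and the animals behind each library are not given in the labels used here, so the p-values speak of the spread between samples, which may be technical.

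Replication-dependent histone genes encode the H1, H2A, H2B, H3 and H4 proteins on which new DNA is packed during S phase. Their mRNAs lack introns and end in a conserved stem-loop in place of a poly(A) tail, and their level rises as cells replicate DNA and drops when replication stops. The libraries were made from total RNA depleted of ribosomal RNA, per the labels' protocols, with no selection for poly(A) named there, so mRNAs without a tail could enter them. In bulk RNA, fewer cells in S phase and less histone RNA in each cell cannot be told apart.

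The label of these windows could be checked by the lengths of the members only, as position and a single exon were part of the choice. None of the 35 known-gene identifiers of the members occurred in the reference tables (0 of 35), and neither did any other identifier of the annotation. For that reason the macrophage markers and the lists of cell cycle and histone-processing genes were not run, and sequences of the members were not used here. In RefSeq's gene table for another build (GRCm38.p6), 53 protein-coding genes of chromosome 13 carry replication-dependent histone names, 6 of them H1, 13 H2A, 14 H2B, 9 H3 and 11 H4. Split where starts lay over 100 kb apart, these fall in 4 groups of 17, 5, 29 and 2 genes. Their positions were not converted to mm9, so the groups were not placed against windows P and Q.

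The members were 312 to 747 nt long, with a median of 393 nt, and 17 lay on the plus and 18 on the minus strand. The length was a multiple of 3 for 29 of the 35, which the choice did not require. Some lengths recurred: 8 members were 312 nt, 6 were 381 nt, 4 were 393 nt, 2 were 411 nt and 2 were 514 nt. Read as coding sequence with a stop codon, 312, 381, 393 and 411 nt leave 103, 126, 130 and 136 codons, the textbook lengths of the H4, H2B, H2A and H3 proteins with their first methionine. That is a match of length, and no member was identified by it.

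Total counts per library ran from 23071022 to 27783417. Untreated replicate 1 stood apart at the members: it had the highest untreated CPM (its count scaled to the total count of the library) at 22 of 26 tested member loci, against 34.2% of all tested loci. IL-4 replicate 1 had the highest value of its group at 22 of the 26 as well, against 30.7% of all tested loci. The main counts of calls are therefore given with and without untreated replicate 1. The labels and files name no sequencing batch or date.

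Before treatment every member was above the median level of all tested transcripts, which was 4.20 FPKM (fragments scaled to transcript length and to the mapped fragments of the library). Mean untreated FPKM of the members ran from 18.6 to 354, with a median of 108. Q1 (chromosome 13, 23622913 to 23623390, plus strand, 478 nt) and Q5 (23643201 to 23643512, minus strand, 312 nt) were highest, at 354 ± 73.2 and 353 ± 60.2 FPKM (SD, n = 4). Those neighbours in the order did not differ beyond their spread. After them came Q12 at 276 ± 70.6, P14 at 256 ± 63.3, P13 at 232 ± 36.3, Q10 at 231 ± 74.9 and Q14 at 226 ± 33.2 FPKM, each within 1 SD of the next. Q7 (704 nt, 34.3 ± 5.14 FPKM) and Q11 (381 nt, 18.6 ± 8.04 FPKM) were lowest.

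In FPKM, levels differed between the length classes. The 8 members of 312 nt lay between 124 and 353 FPKM untreated, with a median of 217. The 6 members of 381 nt lay between 18.6 and 84.2 FPKM with a median of 50.2, and the 4 of 393 nt between 40.5 and 64.9 FPKM with a median of 52.7. The 2 members of 411 nt, Q6 and Q16, had 188 and 153 FPKM. The lowest of the 312 nt class thus exceeded the highest of the 381 and 393 nt classes in FPKM. Counts at loci with 1 transcript did not keep that order. The 312 nt members P14, Q17 and Q18 had 130, 2.47 and 0 CPM per kb of the locus untreated. The 393 nt P2 and P11 had 70.4 and 27.2, and the 381 nt P1, Q9 and Q11 had 37.5, 37.2 and 0. Q11, Q17 and Q18 share exonic bases with other loci. FPKM of transcripts near the fragment length depend on the length correction, and the settings behind it are not given in the sources used here, so its part in the order of the classes was not tested.

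**Figure D1:**
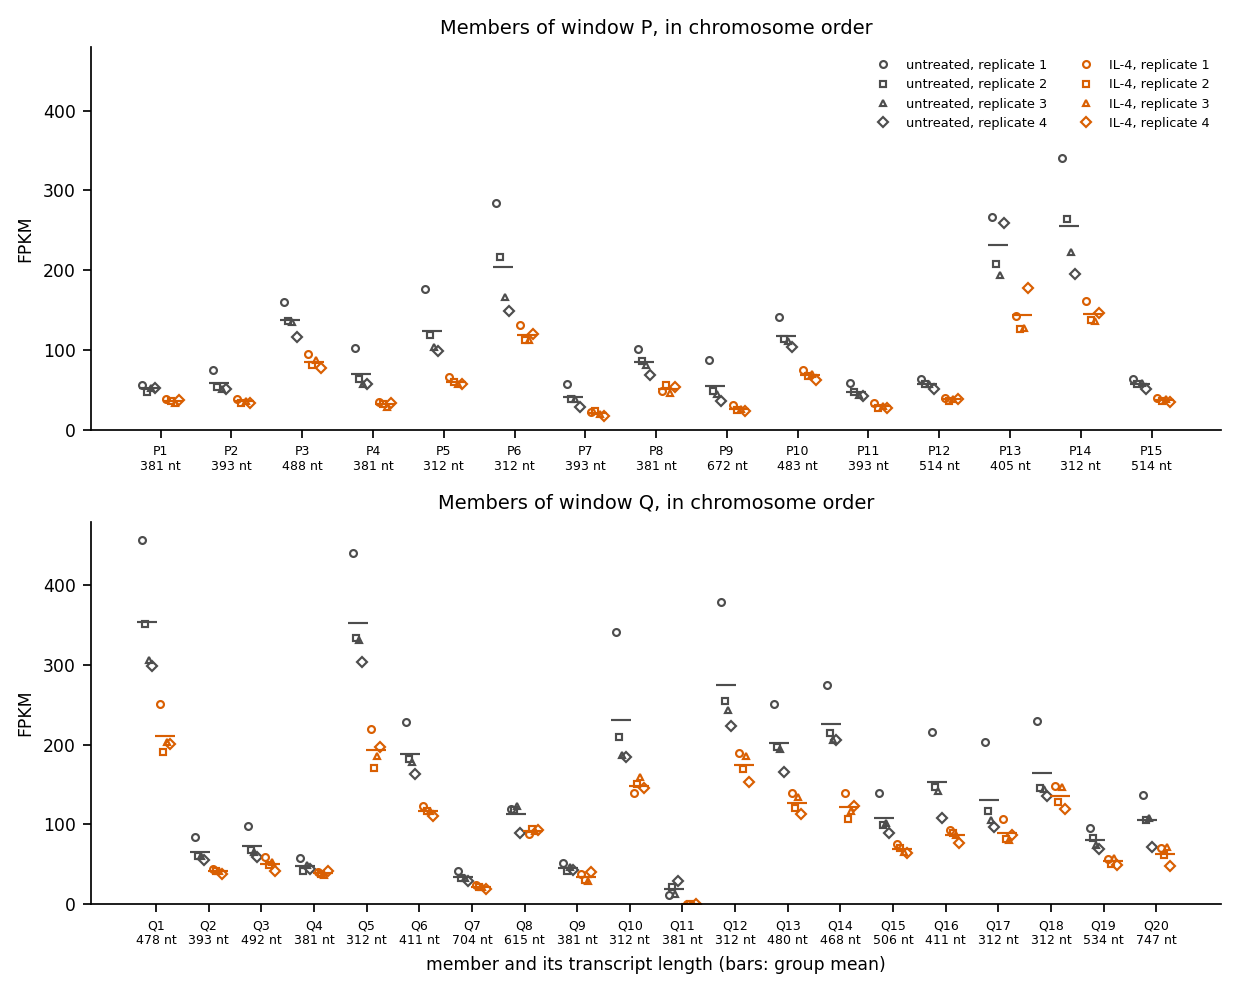
FPKM (linear axis) of each member in the 8 libraries, in chromosome order with the transcript length below the name; grey symbols are untreated and orange symbols IL-4 libraries, and the short bars are group means (n = 4). The untreated means run from 18.6 to 354 FPKM, and the grey symbols lie above the orange ones for 31 of 35 members.

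The comparison of IL-4-treated with untreated macrophages asks which member loci differ in abundance after IL-4. Counts of the member loci were lower with IL-4: of 26 tested, 22 fell, 0 rose and 4 did not pass the test (edgeR's quasi-likelihood test with Benjamini-Hochberg adjustment over all loci, threshold 0.05). Of all 13761 tested loci, 51.8% passed the test, 26.2% falling and 25.6% rising. The fitted log2 fold changes of the 26 ran from -1.09 to -0.18 with a median of -0.66, a 1.58-fold lower level, where the median of all tested loci was -0.02. The falls were moderate: 2 loci reached 2-fold, 15 lay between 1.5- and 2-fold and 9 were under 1.5-fold. Tested against a change of 1.5-fold, a test added after the data were seen, 7 loci fell (P2, P4, P5, P7, P10, Q5 and Q14), and 0 rose, against 8.91% and 9.02% of all tested loci.

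The groups did not overlap at 22 of the 26 loci, all 4 untreated libraries being above all 4 IL-4 libraries, which held for 31.5% of all tested loci. Within same-numbered pairs, 25 of the 26 loci were lower with IL-4 in all 4 pairs, against 42.0% of all tested loci, and the exception was Q8 in pair 4. The median change of the 26 in CPM was -0.93, -0.78, -0.74 and -0.61 on the log2 scale in pairs 1 to 4. These CPM, and the overlaps and pairs above, are scaled to total counts alone, while the fitted fold changes use TMM factors. Without untreated replicate 1, 21 loci fell, against 27.1% of all tested loci. The median fitted log2 fold change was then -0.54, and -0.02 for all tested loci. The scaling moved the zero point: with total counts alone the median of all tested loci was -0.13 and 63.7% of all calls were falls, against 50.6% with TMM factors. Under that scaling 24 member loci fell and 0 rose, where 34.6% of all tested loci fell. The members' median minus that of all loci was -0.63, as with TMM factors. A change of scaling moves all loci by nearly the same amount, so this difference could hardly change and is no test of the scaling.

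**Figure D2:**
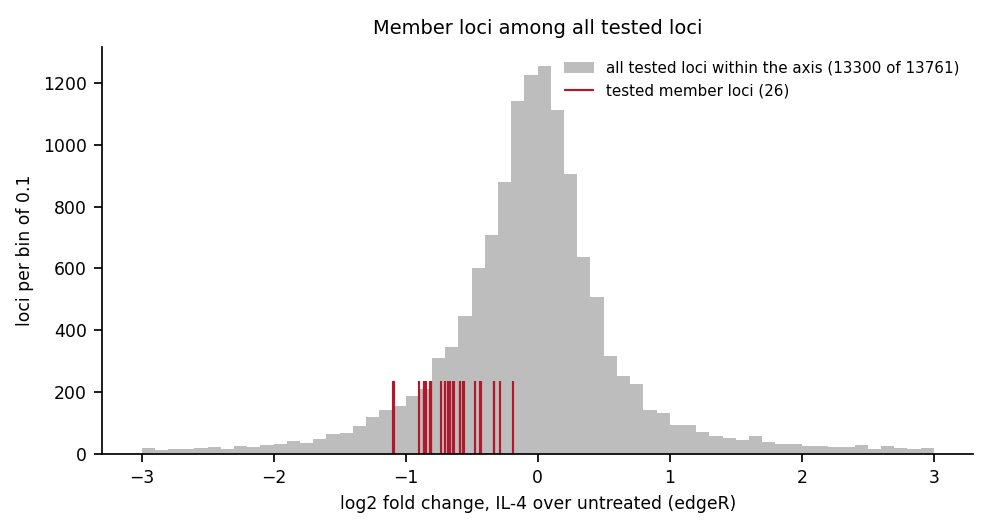
Distribution of edgeR log2 fold changes (IL-4 over untreated) of all tested loci in bins of 0.1, showing the 13300 of 13761 loci within 3 of 0 on either side, with the 26 tested member loci as red lines. All 26 lines lie below 0, between -1.09 and -0.18.

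In window P, 11 of 12 tested loci fell and 0 rose, with a median log2 fold change of -0.81. The 2 largest falls among the 26 loci tested in counts were here. At the locus of P4 (transcript 21813967 to 21814347, plus strand, 381 nt), CPM were 64.5, 52.9, 50.8 and 43.0 in untreated replicates 1 to 4 and 26.9, 21.2, 20.8 and 23.1 with IL-4. Every IL-4 library was below every untreated one, and the locus was 2.13-fold lower with IL-4 (log2 fold change -1.09, SE 0.12, adjusted p = 2.69e-05). At the locus of P5 (21826965 to 21827276, plus strand, 312 nt), CPM were 51.5, 45.2, 43.7 and 39.4 untreated and 24.0, 18.4, 16.8 and 19.3 with IL-4, again without overlap, and it was 2.13-fold lower with IL-4 (log2 fold change -1.09, SE 0.12, adjusted p = 1.53e-05). Both loci also hold 1 longer assembled transcript, so their counts are not those of the short transcript alone.

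P10 (21874784 to 21875266, minus strand, 483 nt) and P2 (21808291 to 21808683, plus strand, 393 nt) are alone at their loci. For P10, CPM were 33.4, 27.8, 26.7 and 26.1 untreated and 16.7, 15.3, 14.8 and 13.7 with IL-4. The untreated libraries all lay above the IL-4 libraries, with replicate 1 highest in each group, and the locus was 1.75-fold lower with IL-4 (log2 fold change -0.81, SE 0.098, adjusted p = 4.15e-05). For P2, CPM were 30.8, 26.9, 28.4 and 24.6 untreated and 15.9, 14.2, 14.3 and 10.8 with IL-4. The lowest untreated library again exceeded the highest IL-4 library, and P2 was 1.86-fold lower with IL-4 (log2 fold change -0.90, SE 0.11, adjusted p = 5.1e-05).

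P1 and P2, P7 and P8, and Q7 and Q8 are pairs of neighbours transcribed away from each other, with 278, 295 and 179 nt between their starts. At the locus of P7 (21845304 to 21845696, minus strand, 393 nt), CPM were 44.5, 37.4, 40.1 and 30.8 untreated and 22.2, 20.2, 20.4 and 17.9 with IL-4. At that of P8 (21845992 to 21846372, plus strand, 381 nt) they were 50.0, 47.1, 56.1 and 39.6 untreated and 26.4, 28.4, 26.7 and 26.4 with IL-4. Neither locus had overlapping groups, and both fell (log2 fold change -0.82, SE 0.11, adjusted p = 7.97e-05 for P7, and log2 fold change -0.73, SE 0.091, adjusted p = 5.45e-05 for P8). In P1 and P2 the log2 fold changes of counts were -0.57 and -0.90, and both fell. In Q7 and Q8 they were -0.59 and -0.28, and Q7 alone passed the test. The difference within a pair was not tested.

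P3 (21809497 to 21809984, plus strand, 488 nt) and P11 (21878695 to 21879087, minus strand, 393 nt), each alone at its locus, fell as well. P3 had CPM of 32.8, 30.1, 30.0 and 24.1 untreated and 19.1, 16.7, 18.02 and 15.9 with IL-4, without overlap (log2 fold change -0.64, SE 0.097, adjusted p = 0.000224). P11 was the lowest of the 11 loci that fell in this window, with CPM of 11.7, 11.6, 9.80 and 9.68 untreated and 6.42, 5.04, 5.21 and 6.06 with IL-4. Its groups did not overlap either (log2 fold change -0.81, SE 0.12, adjusted p = 0.000172).

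The locus of P9 (21871752 to 21872423, minus strand, 672 nt) had the widest untreated spread of these, with CPM of 143, 101, 99.0 and 74.7 untreated against 63.1, 49.9, 54.8 and 46.6 with IL-4. Untreated replicate 1 was highest and replicate 4 lowest, and even the lowest exceeded all IL-4 libraries (log2 fold change -0.86, SE 0.17, adjusted p = 0.00137). P6 (21842063 to 21842374, minus strand, 312 nt) lies in a locus that runs from 21838424 to 21842853 and had CPM of 102, 83.1, 71.5 and 58.9 untreated and 53.2, 45.2, 43.6 and 41.2 with IL-4. Its untreated libraries were all above its IL-4 libraries (log2 fold change -0.68, SE 0.15, adjusted p = 0.00263).

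In window Q, 11 of 14 tested loci fell and 0 rose, with a median log2 fold change of -0.57. The locus of Q14 (23838603 to 23839070, plus strand, 468 nt) had CPM of 122, 92.9, 89.6 and 84.8 untreated and 58.1, 43.8, 47.7 and 49.9 with IL-4. The groups lay well apart, with replicate 1 highest in both, and the locus was 1.82-fold lower with IL-4 (log2 fold change -0.86, SE 0.12, adjusted p = 0.000161). The locus of Q5, 1 of the 2 most abundant members, had CPM of 131, 108, 106 and 97.5 untreated and 67.3, 51.3, 54.3 and 56.8 with IL-4. No library of one group reached the range of the other, and it was 1.79-fold lower with IL-4 (log2 fold change -0.84, SE 0.11, adjusted p = 6.21e-05). This locus shares 11.7% of its exonic bases with others.

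The most counts fell on 2 loci that join several members. One runs from 23652104 to 23837486 and holds Q6 (411 nt) and Q13 (480 nt), and its CPM were 190.5, 154, 150.0 and 132 untreated and 99.9, 87.4, 95.7 and 84.3 with IL-4. The other runs from 23622872 to 23637999, holds Q1, Q2, Q3 and 3 other transcripts, and had CPM of 159, 118, 118 and 105 untreated and 87.2, 75.0, 79.3 and 68.8 with IL-4. Neither had overlapping groups, and both fell (log2 fold change -0.67, SE 0.11, adjusted p = 0.000302 for Q6 and Q13; log2 fold change -0.59, SE 0.12, adjusted p = 0.00195 for Q1 to Q3). As such a count belongs to several transcripts, the value per member is its FPKM.

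Q7 (23662386 to 23663089, minus strand, 704 nt) is alone at its locus and had CPM of 19.8, 16.4, 16.3 and 14.4 untreated and 11.5, 10.5, 9.93 and 9.50 with IL-4. All untreated libraries were higher (log2 fold change -0.59, SE 0.11, adjusted p = 0.000849). Q10 (23673471 to 23673782, plus strand, 312 nt) had locus CPM of 149.7, 122, 111 and 96.4 untreated and 84.4, 89.5, 65.8 and 81.0 with IL-4. The order of its IL-4 libraries differed from that at most loci, with replicate 2 highest, and the gap between the groups was narrower (log2 fold change -0.47, SE 0.13, adjusted p = 0.0122). Q4, Q9, Q15, Q16 and Q20 also fell, with log2 fold changes from -0.70 (Q20, adjusted p = 0.00634) to -0.33 (Q9, adjusted p = 0.0435). Q9 lay near the threshold, its groups overlapped at 12.9 CPM, and its call was lost in 8 of 16 alternative settings, among them the fits without untreated replicate 1 or 3 and without IL-4 replicate 2, 3 or 4, with adjusted p up to 0.124. The other 21 loci that fell kept their call in each of the 16 in which they were tested.

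P14, Q8, Q12 and Q17 did not pass the test on counts. P14 (21923716 to 21924027, minus strand, 312 nt) had CPM of 44.5, 48.4, 48.6 and 20.5 untreated and 36.1, 32.2, 30.4 and 12.98 with IL-4. Both replicate 4 libraries were far below the other 3 of their group, so the groups overlapped although each IL-4 library was below its untreated partner (log2 fold change -0.43, SE 0.30, adjusted p = 0.259). With the replicate number as a block it passed (adjusted p = 0.0002), and without both replicate 4 libraries as well (adjusted p = 0.00338). Its FPKM were 340.5, 264, 223 and 195 untreated and 162, 138, 136 and 146 with IL-4. In FPKM untreated replicate 4 was the lowest of its group by less than in CPM, and IL-4 replicate 4 was not low. The cause of that difference between the units was not tested.

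Q8 (23663269 to 23663883, plus strand, 615 nt) had locus CPM of 65.1, 64.2, 66.4 and 38.6 untreated and 41.1, 44.4, 42.6 and 50.0 with IL-4. The replicate 4 libraries ran against the rest, the untreated one being lowest of its group and the IL-4 one highest (log2 fold change -0.28, SE 0.15, adjusted p = 0.133). Without untreated replicate 4 it passed, and the log2 fold change ran from -0.52 to -0.22 over the alternatives. For Q12 (23790007 to 23790318, minus strand, 312 nt), CPM were 104, 85.9, 71.0 and 66.8 untreated and 66.2, 60.3, 64.6 and 51.8 with IL-4. The lowest untreated library was just above the highest IL-4 library (log2 fold change -0.33, SE 0.13, adjusted p = 0.0597), and Q12 passed with the replicate block (adjusted p = 0.00777) and without untreated replicate 3 (0.0308) or 4 (0.0274). Without untreated replicate 1 its log2 fold change was -0.18 (adjusted p = 0.129), and the adjusted p ran from 0.00777 to 0.154 over the 16 alternatives. Q17 (23848890 to 23849201, plus strand, 312 nt) had 0.501 to 1.05 CPM untreated and 0.481 to 0.813 with IL-4, overlapping ranges at a low count (log2 fold change -0.18, SE 0.27, adjusted p = 0.592).

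The 6 other loci were not tested. P12 (8 counts in all untreated and 0 in all IL-4 libraries), P13 (8 and 12) and P15 (1 and 0) were under the filter on low counts. Q11, Q18 and Q19 had 0 counts in every library, which allows up to 3 counts in the 4 libraries of a group, for counting error only. All 6 had FPKM above 10 in the untreated libraries, so the deposited counts and FPKM disagree there. Q11, Q18 and Q19 share all their exonic bases with another locus, P13 shares 50.6% and Q17 shares 68.9%.

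P12 (21902236 to 21902749, plus strand) and P15 (21924931 to 21925444, minus strand) share no exonic base with another locus. Both are 514 nt long, and their FPKM were nearly equal in every library, with the larger at most 1.13 times the smaller. P12 had 57.3 ± 5.22 FPKM untreated and 37.9 ± 1.801 FPKM with IL-4 (SD, n = 4). P15 had 57.4 ± 5.06 FPKM untreated and 36.9 ± 2.29 FPKM with IL-4. At the other unshared loci with 1 transcript, CPM per kb were 43.8 to 126% of the FPKM, against 0.292% at P12 and 0.0353% at P15. Copies of a histone gene can be nearly identical, and no source used here says how reads that match several places were counted, so the FPKM of single members are uncertain. Whether such reads set the counts of P12 and P15 was not tested.

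**Figure D3:**
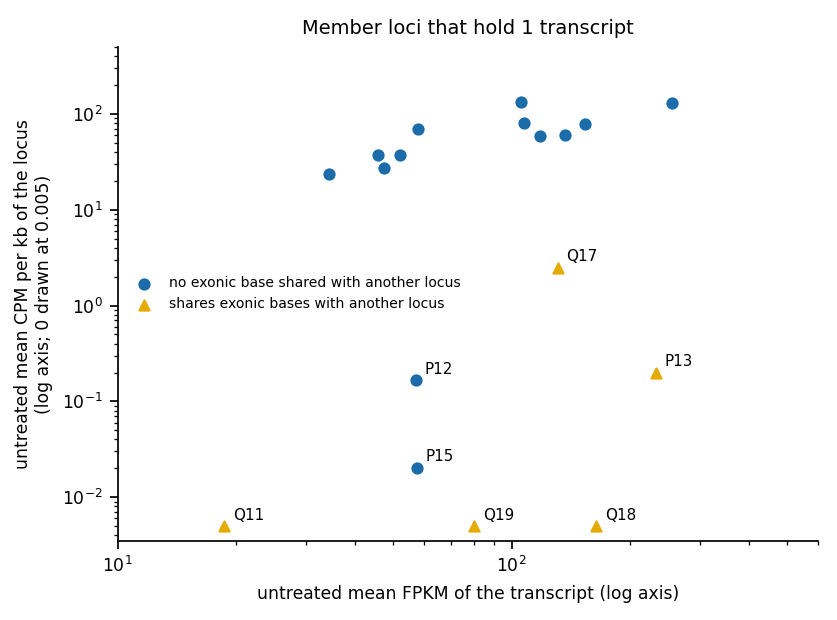
Untreated mean count level (CPM per kb of the locus, log axis, with 0 drawn at 0.005) against untreated mean FPKM (log axis) for the 18 member loci with 1 transcript; circles share no exonic base with another locus, triangles do. Of 13 circles, 11 lie at 43.8 to 126% of their FPKM, and P12 and P15 lie far below, as do all 5 triangles.

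FPKM were given for each of the 35 members, but the FPKM of single members are uncertain. At P12, P13, P15, Q11, Q17, Q18 and Q19 few or 0 counts at the locus stood beside them. Of 35 tested, 32 fell with IL-4, 0 rose and 3 did not pass (limma on log2(FPKM + 0.1), Benjamini-Hochberg adjustment over all transcripts, threshold 0.05). One of the 32, Q11, reached the minimum FPKM in the untreated libraries alone, so its fall follows from the filter; without it 31 of 34 fell. Of all 17500 tested transcripts, 38.4% passed the test, 18.5% falling and 19.8% rising. The median log2 fold change was -0.68 for the members and 0.00 for all tested transcripts. The groups did not overlap for 31 members (30 without Q11), against 19.0% of all tested transcripts with every untreated library above every IL-4 library, and the exceptions were Q3, Q8, Q17 and Q18. In all 4 pairs 33 of 35 were lower with IL-4, the others being Q8, higher in pair 4, and Q18, higher in pair 3. Without untreated replicate 1, Q11 left the test, and 29 of 34 fell, against 16.9% of all tested transcripts, with a median of -0.57. Counts and FPKM come from the same reads and are not independent of each other.

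All 15 members of window P fell in FPKM, with a median of -0.72. Among them were P12, P13 and P15, whose loci had few counts. P4 went from 69.9 ± 21.7 to 31.9 ± 2.69 FPKM (SD, n = 4; log2 fold change -1.09, SE 0.18, adjusted p = 0.00159) and P5 from 124 ± 35.6 to 60.1 ± 4.45 FPKM (log2 fold change -1.01, SE 0.17, adjusted p = 0.00169). The other large falls were those of P9, from 54.1 ± 23.1 to 26.1 ± 3.34 FPKM (log2 fold change -0.97, SE 0.25, adjusted p = 0.0139), and P7, from 40.5 ± 12.2 to 20.6 ± 3.08 FPKM (log2 fold change -0.94, SE 0.20, adjusted p = 0.00612). P14, which counts did not call, went from 256 ± 63.3 to 145 ± 11.8 FPKM and passed here (log2 fold change -0.79, SE 0.16, adjusted p = 0.0045). P13 went from 232 ± 36.3 to 143 ± 24.1 FPKM (log2 fold change -0.69, SE 0.14, adjusted p = 0.00482), with 266, 207, 194 and 259 FPKM in the untreated and 142, 126, 127 and 178 in the IL-4 libraries. At P13 the replicate 4 libraries were high in both groups, which the ranges still kept apart. P1 had the smallest fall of the window, from 52.2 ± 3.52 to 35.9 ± 1.87 FPKM (log2 fold change -0.54, SE 0.065, adjusted p = 0.000271).

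Of 20 members in window Q, 17 fell in FPKM, with a median of -0.64. Without Q11 they were 16 of 19, with a median of -0.63. Q1 had 458, 352, 306 and 298 FPKM untreated and 251, 191, 203 and 201 with IL-4. Its lowest untreated library was above its highest IL-4 library (log2 fold change -0.73, SE 0.15, adjusted p = 0.00428). Q5 had 441, 334, 332 and 304 FPKM untreated and 220.2, 171, 185 and 197 with IL-4, further apart than Q1 (log2 fold change -0.86, SE 0.12, adjusted p = 0.000738). Q12 had 379.7, 255, 244 and 224 FPKM untreated and 189, 170.0, 186 and 154 with IL-4 and passed in this unit (log2 fold change -0.63, SE 0.16, adjusted p = 0.0133). Each of these 3 members was highest in replicate 1 of both groups.

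Q14 went from 226 ± 33.2 to 121 ± 13.4 FPKM (log2 fold change -0.89, SE 0.11, adjusted p = 0.000371), Q6 from 188 ± 28.5 to 117 ± 5.51 FPKM (log2 fold change -0.67, SE 0.10, adjusted p = 0.000869) and Q13 from 202 ± 35.3 to 127 ± 12.6 FPKM (log2 fold change -0.66, SE 0.13, adjusted p = 0.00329). Q10 had 342, 209.7, 187 and 184 FPKM untreated and 139, 150.2, 160.0 and 146 with IL-4. Untreated replicate 1 lay far above the rest, and the call of Q10 (log2 fold change -0.58, SE 0.18, adjusted p = 0.0348) was lost with the replicate block (adjusted p = 0.0561). It was also lost without untreated replicate 2 or any single IL-4 library, with adjusted p from 0.0571 to 0.0809. Q3 and Q4 fell too (log2 fold change -0.49, SE 0.16, adjusted p = 0.0413 for Q3; log2 fold change -0.29, SE 0.1, adjusted p = 0.0475 for Q4), and both calls were lost in the fits that left out untreated replicate 3 or IL-4 replicate 2, 3 or 4. The 3 members that did not pass were Q8 (113 ± 15.6 FPKM untreated and 91.8 ± 2.36 FPKM with IL-4, log2 fold change -0.29, SE 0.099, adjusted p = 0.0509), Q17 (131 ± 49.0 FPKM untreated and 89.1 ± 12.2 FPKM with IL-4, log2 fold change -0.50, SE 0.22, adjusted p = 0.109) and Q18 (164 ± 44.1 FPKM untreated and 136 ± 14.4 FPKM with IL-4, log2 fold change -0.25, SE 0.17, adjusted p = 0.28). With the replicate block Q17 passed (adjusted p = 0.0288).

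The last 6 members of window Q, Q15 to Q20, lie in a stretch of 13.3 kb. Q20 (23855537 to 23856283, plus strand, 747 nt) had locus CPM of 128, 99.5, 102 and 67.1 untreated and 64.0, 56.1, 64.2 and 42.6 with IL-4, and Q15 (23842957 to 23843462, plus strand, 506 nt) had 55.3, 37.6, 38.5 and 32.6 and 27.1, 25.4, 22.9 and 22.8. Q16 (23844249 to 23844659, plus strand, 411 nt) had 42.8, 29.1, 31.9 and 26.4 CPM untreated and 22.2, 20.8, 20.1 and 18.9 with IL-4. All 3 are alone at their loci, and none had overlapping groups, although the lowest untreated value of Q20 came near its highest IL-4 value. Q18 and Q19, without counts, could be followed in FPKM only. Q18 (23852715 to 23853026, minus strand, 312 nt) had 230.0, 146, 145 and 136 FPKM untreated and 148, 129, 147 and 119 with IL-4. With untreated replicate 1 aside, its untreated values lie inside the range of the IL-4 values. Q19 (23853722 to 23854255, minus strand, 534 nt) had 95.8, 83.1, 74.1 and 68.6 FPKM untreated and 56.7, 50.6, 57.6 and 49.4 with IL-4, without overlap (log2 fold change -0.58, SE 0.11, adjusted p = 0.00287).

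**Figure D4:**
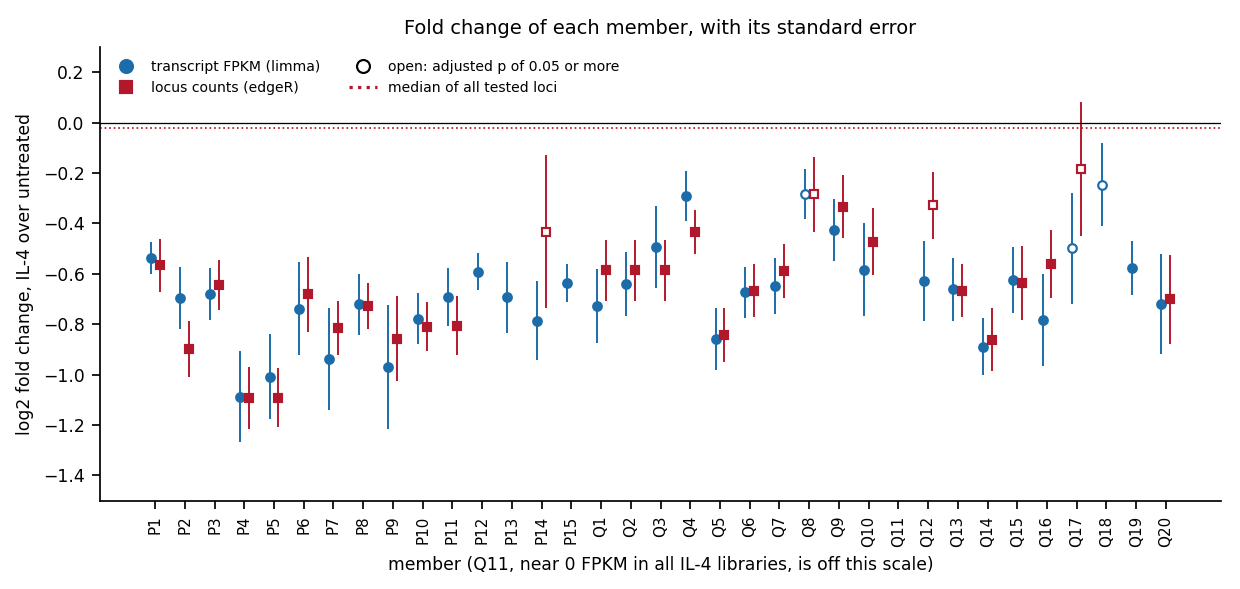
Log2 fold change (IL-4 over untreated) of each member in FPKM (blue circles, limma) and of its locus in counts (red squares, edgeR), with SE; open symbols have an adjusted p of 0.05 or more, and the dotted line is the median of all tested loci, -0.02. All drawn values are below 0, and members that share a locus have the same square. Q11 is not drawn in FPKM, and the untested loci of P12, P13, P15, Q11, Q18 and Q19 have no square.

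Q11 (23776101 to 23776481, minus strand, 381 nt) stood apart from the other members in size. It had 11.5, 21.3, 12.9 and 28.8 FPKM untreated and was near 0 in all 4 IL-4 libraries (mean 1.06e-05 FPKM). No fold is given, as its log2 fold change followed the pseudocount, from -4.21 with 1 through -7.45 with 0.1 to -10.76 with 0.01. Its locus had 0 counts in every library. All its exonic bases lie in the exons of a locus on the plus strand (23776068 to 23784349), whose counts, summed over the 4 libraries of a group, rose from 1658 untreated to 5317 with IL-4 (log2 fold change 1.70, adjusted p = 1.05e-07). Whether the kit marked strand is not stated in the labels used here, so reads of Q11 and of this locus cannot be told apart.

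Summed, the 32 member loci took 0.184, 0.149, 0.146 and 0.120% of the counts of the untreated libraries and 0.0980, 0.0868, 0.0870 and 0.0805% with IL-4. All untreated libraries were above all IL-4 libraries, and replicate 4 was lowest in each group. The means were 0.150 ± 0.0261% and 0.0881 ± 0.00728% (SD, n = 4), a 1.70-fold lower share with IL-4. The ratio was 1.86-fold in window P and 1.63-fold in window Q. Within pairs 1 to 4 the log2 ratio was -0.91, -0.78, -0.75 and -0.58, and without untreated replicate 1 the log2 ratio was -0.65 in place of -0.77. The summed FPKM of the 35 transcripts went from 4559 ± 919 to 2795 ± 169, 1.63-fold lower. Loci that hold other transcripts also count the reads of those. The 18 loci that hold 1 transcript took 0.0355 ± 0.0066% of the counts untreated and 0.0212 ± 0.00297% with IL-4, 1.67-fold lower. With TMM-scaled totals the log2 ratio of the 32 loci was -0.66.

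**Figure D5:**
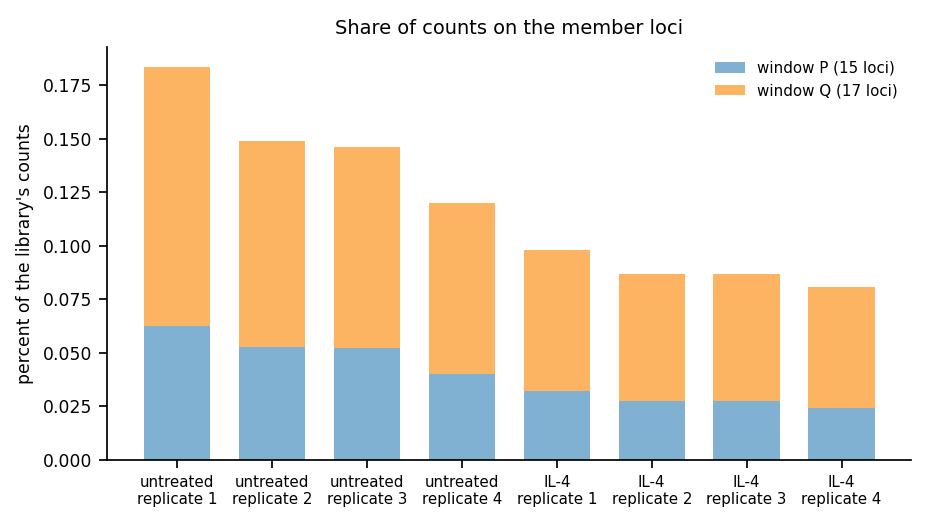
Percent of each library's counts that fell on the member loci of window P (blue) and window Q (orange), stacked. The 4 untreated libraries reach 0.120 to 0.184% and the 4 IL-4 libraries 0.0805 to 0.0980%.

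The length classes were compared by their medians in FPKM. The median log2 fold change was -0.68 for the 8 members of 312 nt (6 of which fell), -0.54 for the 5 of 381 nt besides Q11 (all 5 fell) and -0.69 for the 4 of 393 nt (all 4 fell). Q6 and Q16, of 411 nt, had -0.67 and -0.78. These medians were not tested against each other. Of loci that hold 1 transcript, 10 of 12 tested fell in counts with a median of -0.61, and of loci that hold others, 12 of 14 with a median of -0.71.

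Of the 35 members, 16 lie within 14 longer single-exon transcripts that the authors' assembly added and coded as overlapping the reference. One of them spans Q1, Q2 and Q3, and each of the others holds 1 member. Measured from the outermost members, the 14 ran 601 to 3639 nt past the 3′ end (median 1012) and at most 479 nt past the 5′ end (median 91), and each ran further at the 3′ end. Histone mRNAs normally end at the stem-loop a short way after the coding sequence. In FPKM the longer transcripts were below their member in every case, at 0.261 to 42.2% of it untreated (median 6.28%) and 0.235 to 50.2% with IL-4 (median 8.30%). Of 13 tested, 11 fell, 0 rose and 2 did not pass, with a median log2 fold change of -0.70. The longer transcript over P4 went from 19.2 ± 2.13 to 9.05 ± 1.32 FPKM (log2 fold change -1.08, adjusted p = 0.000167), where P4 itself had -1.09. The longer transcript over P9 had the largest share, 22.8 ± 4.11 FPKM untreated and 13.1 ± 1.58 with IL-4. The one over Q8 was the single one of the 13 with a positive value (log2 fold change 0.41, adjusted p = 0.218).

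Single-exon coding reference transcripts in the windows at or past the length limit were not members. Of those just past it, 912 to 980 nt long, each was at or under 0.135 FPKM in both groups. Of the 13 in all, 6 were tested, of which 5 fell and 1 rose. The shortest that fell, 1003 nt long (23635921 to 23636923), went from 61.7 to 37.3 FPKM (log2 fold change -0.71, adjusted p = 0.00256). The one that rose, of 1561 nt (23830676 to 23832236), went from 95.9 to 146 FPKM (0.62, adjusted p = 0.00245), and the other 4 had log2 fold changes of -0.77 to -0.33. The longest member, Q20 (747 nt), had 106 ± 26.5 to 63.2 ± 10.7 FPKM (log2 fold change -0.72, SE 0.20, adjusted p = 0.0197). Among the 35 other loci in the windows, 12 were tested, of which 4 fell and 4 rose.

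Outside the windows, 158 single-exon coding reference transcripts were shorter than 800 nt. Of their 157 loci, 33 were tested in counts, with 8 that fell, 7 that rose and a median of -0.05. In FPKM, 35 of the 158 were tested, with 13 that fell, 4 that rose and a median of -0.07. Of the 157, 96 had 0 counts in all libraries. Runs of at least 5 of these transcripts with neighbours at most 50 kb apart were found at 6 places. One was next to window P (22127035 to 22135479), where 4 of 5 tested transcripts fell in FPKM with a median of -0.63. Another was on chromosome 3 (96023839 to 96074115), where 5 of 5 tested fell with a median of -0.82, and the most abundant of them went from 280 ± 41.1 to 149 ± 15.5 FPKM. The other 4 runs were at or near 0 FPKM. In counts the chromosome 3 run had 3 tested loci, of which 1 fell, and the run next to window P had 5, of which 3 fell and 1 rose. The locus that rose there (21903622 to 22133337, log2 fold change 0.40, adjusted p = 0.0486) also overlaps P13. The differences between these runs and the members were not tested.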

How the data were processed

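Total RNA of 8 samples, 4 untreated and 4 IL-4-treated, was sequenced after depletion of ribosomal RNA, per the labels' protocols. The authors deposited whole-number counts per merged locus and FPKM per transcript, with the merged annotation on mm9. Per the submitters' processing notes, TopHat2 2.0.9, CASAVA 1.8.2, HTSeq and Cufflinks 2.1.1 were used. Their settings, the handling of strand and the treatment of reads matching several places are not given in the sources used here. All value columns matched a library, and 0 were left over.

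Member loci were tested within a fit of all loci on counts with edgeR 4.0.16 in R 4.3.3 (TMM factors, default expression filter, quasi-likelihood test, two-sided, Benjamini-Hochberg adjustment, threshold 0.05). CPM are counts scaled to the library's total count. Transcripts that reached an FPKM of 1 in 4 or more libraries were tested with limma 3.58.1 (trend) on log2(FPKM + 0.1), where fold changes of low transcripts are understated. Standard errors come from the same fits. Depth ran from 23071022 to 27783417 counts, and the depth behind a single FPKM value is unknown.

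Both procedures were tested on simulated data with 200 changed features. The simulated counts had a single dispersion for all loci and no library effect besides depth. They therefore do not show how the test behaves on the spread between these libraries. Same-numbered libraries deviated together from their group means (correlations 0.39, 0.15, 0.23 and 0.18 for pairs 1 to 4, each above 0.1). The numbers were taken as possible pairs only, as the labels do not say that they mark a shared animal. The main fits left the replicate number out, and the fit with it as a block is given where it changed a call. Pairs 2 and 3 were not told apart by these correlations. Untreated replicate 3 and IL-4 replicate 2 had 0.26, and untreated replicate 2 and IL-4 replicate 3 had 0.13. Untreated replicate 1 and IL-4 replicate 4 had 0.12.

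Loci given in every library were the 12 with the smallest adjusted p, the 10 transcripts with the highest mean FPKM and the 5 loci with the highest mean count. Other members named were those the tests did not call, those not tested and those with features described beside them. The members and lists were chosen with earlier results of these data known. Alternatives were other scalings, filters, pseudocounts, DESeq2 1.42.0, the block, each library left out, and, added after the data were seen, a test against 1.5-fold.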

Additional observations from a re-analysis of the deposited data

Results flagged for a closer look

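In 9 of 124 groups of 4 libraries, the highest or lowest library lay apart from the other 3 by more than the 95% limit of Dixon's test. Chance does this in about 1 of 20 groups, so a good part of the 9 can be chance. The groups are not independent, as counts and FPKM of a member come from the same reads. Untreated replicate 1 was the high library in 5 of them, all in FPKM. P2 had 75.0 FPKM there against 51.4 to 53.6 in the other untreated libraries, and P4 had 102 against 56.9 to 63.3. Q10 had 342 FPKM against 184 to 210, Q14 had 275.0 against 206 to 215, and Q18 had 230.0 against 136 to 146.

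Untreated replicate 4 was the low library in 3. The locus of P14 had 20.5 CPM there against 44.5 to 48.6, and the locus of Q8 had 38.6 CPM against 64.2 to 66.4. Q8 was also low in FPKM, at 89.6 against 118 to 124. The last is the locus of Q9, with 12.9 CPM in IL-4 replicate 1 against 9.58 to 9.80 in the other IL-4 libraries. No cause was tested.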

How the results depend on the processing

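Between 21 and 24 member loci fell in counts under every alternative besides the test against 1.5-fold, which left 7, and 0 rose in any. Leaving out 1 library gave 21 to 24 member loci and DESeq2 gave 22. Of all tested loci, 17.6 to 34.6% fell under these alternatives, the test against 1.5-fold aside. The replicate block gave 24 loci in counts, the 22 called without it among them, and 32 transcripts in FPKM, 31 of them called without it. With the block, 29.4% of all tested loci and 18.7% of all tested transcripts fell. The block moved the call of P14 and Q12 in counts and of Q10 and Q17 in FPKM, and no other. In FPKM, 23 transcripts fell without the filter, when 74853 transcripts were tested and 5.92% fell. After quantile normalization 34 fell, against 19.8% of all tested transcripts. Leaving out 1 library gave 28 to 32, against 13.9 to 17.9% of all tested transcripts. Of the 32 transcripts that fell, 22 kept their call in all 15 alternatives, Q11 kept it in the 10 in which it was tested (it left the test with any untreated library left out), and 9 lost it in some, P6, P9, Q12, Q16 and Q20 only without the filter and Q3, Q4, Q9 and Q10 in 5 or more. The log2 ratio of summed counts ran from -0.86 to -0.65 over the left-out libraries and was -0.66 with TMM-scaled totals. With no filter on counts P13 had a positive fitted value (0.58, from 8 and 12 counts), and without untreated replicate 1 Q17 had 0.01. P12, P13, P15 and Q17 had few counts, and loci that join or share transcripts limit what a count stands for.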
